A study of Mus musculus with 8 samples.

Results

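MHC class II and macrophage genes, 10 chosen by name, were followed through sorted mouse pancreatic islet cells: Cd74, H2-Aa, H2-Ab1, H2-Eb1, Ctss, C1qa, C1qb, Cd68, Lyz2 and Ptprc. All 10 were found among the 46955 gene entries used, and 9 of them were among the 13172 genes tested. RNA was sequenced from 8 libraries in 3 groups: beta cells (3 libraries, 2 female and 1 male), alpha cells (3 libraries, 1 female and 2 male) and cells called transdifferentiated (2 libraries, 1 female and 1 male). Per the labels and design text, all groups came from islets of adult triple transgenic mice carrying Ins1-H2b-mCherry, a nuclear red reporter of the Ins1 gene, together with Gcg-cre and a floxed YFP allele that labels cells of alpha descent. Beta cells were sorted for mCherry and alpha cells for YFP, while the transdifferentiated cells carried both and were described as beta cells that had arisen from alpha cells. Each library pooled islets of 10 to 12 animals of 1 sex, which had been cultured overnight in 5.5 mM glucose, dissociated with trypsin and sorted. A design note also mentions bitransgenic females, without saying which libraries these gave. No treatment was given, and beta and alpha cells served as the reference groups.

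The genes belong to the antigen presentation and phagocyte programmes. MHC class II molecules are pairs of an alpha and a beta chain on the surface of macrophages, dendritic cells and B cells, where they show peptides to helper T cells. Cd74, the invariant chain, holds the new pair until proteases such as cathepsin S (Ctss) cut it away. C1qa and C1qb encode chains of complement C1q, which tissue macrophages secrete, Cd68 a glycoprotein of lysosomes, Lyz2 the lysozyme of myeloid cells, and Ptprc the leukocyte surface phosphatase CD45. Healthy islets hold resident macrophages that express class II and touch beta cells. In bulk samples such as these, fewer cells of a type and less RNA per cell cannot be told apart.

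The 2 class II chain genes found in the promoter table are shown with a pair of strings that both windows hold, since both genes fell from beta to alpha cells. Of the 10 genes, 7 had an entry in RefSeq's promoter table (GRCm38.p6), which gives 300 bases, 250 before and 50 after the start. Class II promoters are known for an X box bound by the RFX complex and a Y box with the letters ATTGG (its complement being CCAAT). H2-Aa and H2-Eb1 are printed 5′ to 3′, with GCAAC, read as part of the X box, and ATTGG in capitals.
H2-Aa: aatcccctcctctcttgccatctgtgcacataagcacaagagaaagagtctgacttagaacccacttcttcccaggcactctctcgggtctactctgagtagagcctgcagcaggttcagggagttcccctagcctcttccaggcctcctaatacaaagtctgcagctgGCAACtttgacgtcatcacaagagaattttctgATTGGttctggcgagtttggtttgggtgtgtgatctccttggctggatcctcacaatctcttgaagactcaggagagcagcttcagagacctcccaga
H2-Eb1: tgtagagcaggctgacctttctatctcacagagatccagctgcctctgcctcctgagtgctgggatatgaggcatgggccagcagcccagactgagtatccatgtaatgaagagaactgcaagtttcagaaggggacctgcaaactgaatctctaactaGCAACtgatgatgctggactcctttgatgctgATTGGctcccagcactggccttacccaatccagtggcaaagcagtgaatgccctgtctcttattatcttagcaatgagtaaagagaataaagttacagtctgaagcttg
The H2-Aa stretch lies at chr17:34287774-34288073 on the minus strand and the H2-Eb1 stretch at chr17:34305617-34305916 on the plus strand. From GCAAC to ATTGG the distance was 33 bases in H2-Aa and 32 in H2-Eb1. GCAAC was taken as the search string after these 2 promoters had been read. The string searched first, AGNAAC, was found once in H2-Eb1 and not in H2-Aa. Among 32851 promoters of this length, 1.02% held GCAAC 20 to 40 bases before ATTGG and 1.12% held AGNAAC at that distance, with both strands searched. Among the other 5 genes, the Cd68 window also held GCAAC at that distance before ATTGG, once and on the minus strand, so the pair was not limited to class II genes. Outside the 10 genes, the windows of H2-Oa, H2-Ob and H2-Eb2 held the pair, and those of H2-DMa, H2-DMb1 and H2-DMb2 did not. H2-Oa, H2-Ob and H2-Eb2 were at 0 to 0.0567 RPKM in every library, beta cells included. ATTGG alone was in 37.4% of promoters and 3 times in the Cd68 window. It was not found in the windows of Ctss, C1qb, Lyz2 or Ptprc. The string GAGGAAGT, as bound by the myeloid factor PU.1, was in 3.20% of all promoters and, among the 7 genes, in that of Ctss. A match in letters is a description of the window and shows no binding.

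The values are RPKM, which divide a gene's reads by its length and by the size of the library, so that levels of different genes can be set side by side. Whole reads could be recovered from the steps of these values. They summed to between 14336480 and 21394674 in the beta libraries, 12911324 and 14093311 in the alpha libraries, and only 1244156 and 2167199 in transdifferentiated replicates 1 and 2. A single read of a 1 kb gene counted 0.803 and 0.461 RPKM in the latter and at most 0.0774 RPKM elsewhere. The beta and alpha cell marker lists followed the labels: 8 beta cell genes summed to 186222 to 242548 RPKM in beta cells, 139990 to 147545 in transdifferentiated cells and 2492 to 3188 in alpha cells. The 7 alpha cell genes summed to 621 to 1958, 20183 to 20273, and 175667 to 204044 RPKM in the same order. The 4 delta cell genes summed to 312 to 891, 2967 to 3096, and 1371 to 3197 RPKM, and so were higher in transdifferentiated than in beta cells. The titles of replicates 2 and 3 of both beta and alpha cells hold a letter b that no source used here explains. Beta replicates 1 and 2 share a title number, as do alpha replicates 1 and 2, so p-values may in part measure only technical spread.

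The invariant chain and the 3 class II chains were called lower in alpha than in beta cells. The means of the transdifferentiated cells lay in between, but of these 4 genes only H2-Aa was called against both other groups by limma as well as by limma voom, which models recovered reads. Cd74 stood at 36.1, 31.4 and 38.7 RPKM in beta replicates 1 to 3, on 782 to 950 reads a library. It was at 12.0 and 2.62 RPKM in the transdifferentiated libraries (21 and 8 reads) and at 1.65, 2.22 and 1.86 RPKM in the alpha libraries (30 to 42 reads). No library of 1 group overlapped another group, and replicate 1 of the transdifferentiated cells was 4.57 times replicate 2. On the log2(RPKM + 0.5) scale, limma gave Cd74 a fold change of -4.11 (SE 0.38, adjusted p = 0.000222) in alpha against beta cells and -2.62 (SE 0.41, adjusted p = 0.0142) in transdifferentiated against beta cells. The second call was lost without beta replicate 3 (-2.89, adjusted p = 0.0508). The adjusted p is by Benjamini and Hochberg over all genes tested, and a gene was called when it was under 0.05.

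H2-Aa, the alpha chain of I-A, was the steadiest of the set in beta cells. Its levels were 10.1, 9.70 and 10.5 RPKM in the beta libraries, 2.57 and 1.97 RPKM in the transdifferentiated libraries (6 and 8 reads) and 0.455, 0.437 and 0.719 RPKM in the alpha libraries (11, 11 and 19 reads). The 3 groups did not overlap. The log2 fold change was -3.36 (SE 0.17, adjusted p = 1.52e-05) for alpha against beta cells, -1.94 (SE 0.18, adjusted p = 0.00316) for transdifferentiated against beta cells and 1.42 (SE 0.18, adjusted p = 0.00179) for transdifferentiated against alpha cells. H2-Aa was called in the last comparison under all 18 alternatives in which it was tested, with log2 fold changes of 1.09 to 2.11 and adjusted p of 0.000647 to 0.0346.

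H2-Ab1, the beta chain of I-A, was at 8.32, 5.62 and 7.28 RPKM in beta cells and at 3.44 and 1.41 RPKM (7 and 5 reads) in transdifferentiated cells. Alpha cells gave 0.662, 2.14 and 1.04 RPKM, so that alpha replicate 2 lay between the transdifferentiated libraries. It was lower in alpha than in beta cells (-2.29, SE 0.36, adjusted p = 0.0024). Against beta cells the transdifferentiated value was -1.51 (SE 0.39, adjusted p = 0.0483), and this call was lost in 13 of 18 alternatives, where adjusted p reached 0.228. Leaving out any beta or transdifferentiated library, alpha replicate 2 or alpha replicate 3 was enough to lose it, with log2 fold changes of -1.93 without transdifferentiated replicate 1 and -1.02 without replicate 2.

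H2-Eb1, the beta chain of I-E, was at 12.4, 9.63 and 13.8 RPKM in beta cells, 3.39 and 0.779 RPKM (5 and 2 reads) in transdifferentiated cells, and 0.458, 0.440 and 0.719 RPKM in alpha cells. The groups did not overlap, but the lower transdifferentiated library rested on 2 reads and lay close to alpha replicate 3. The log2 fold change was -3.72 (SE 0.37, adjusted p = 0.00028) for alpha and -2.54 (SE 0.40, adjusted p = 0.0137) for transdifferentiated against beta cells, the second lost without beta replicate 3 (-2.60, adjusted p = 0.0640). For transdifferentiated against alpha cells it was 1.18 (adjusted p = 0.0604) and not called. Without transdifferentiated replicate 2 the same difference was 1.92 (adjusted p = 0.00539), and without alpha replicate 3 it was 1.67 (adjusted p = 0.0267). The 3 chain genes lie side by side in the MHC on chromosome 17 (GRCm38, GENCODE M21): H2-Ab1 at 34257689 to 34269419, H2-Aa at 34282744 to 34287823 and H2-Eb1 at 34305867 to 34316674. The start of H2-Eb1 overlaps an antisense gene, Gm20513, listed at 0 RPKM in all 8 libraries, and the kit does not mark strand.

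**Figure D1:**
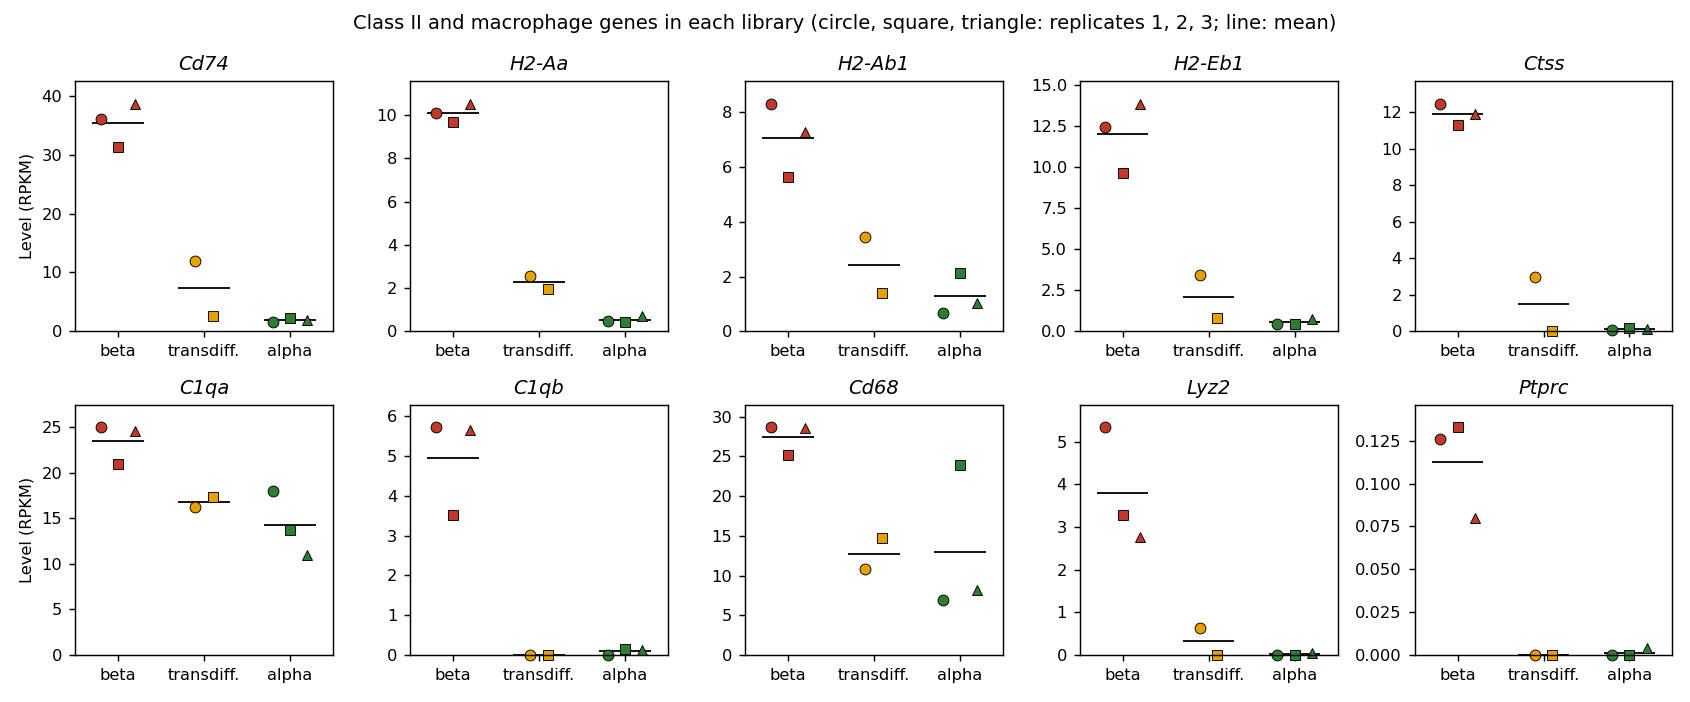
RPKM of each of the 10 genes (y axis, linear, its own scale in each panel) in the 3 beta, 2 transdifferentiated and 3 alpha libraries, with a line at each group mean. Points of H2-Aa form 3 separate steps, the lower transdifferentiated point of H2-Eb1 (0.779) lies next to the highest alpha point (0.719), and C1qa and Cd68 remain well above 0 in every group.

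Ctss, which cuts the invariant chain, was the protease of the set and, in alpha against beta cells, had the largest log2 fold change by limma of the 9 genes tested. It was at 12.5, 11.3 and 11.9 RPKM in beta cells (232 to 329 reads) and at 0.0570, 0.165 and 0.104 RPKM in alpha cells (1, 3 and 2 reads). Transdifferentiated replicate 1 had 2.96 RPKM (5 reads) and replicate 2 had no read, where 35.0 reads would be found at the beta mean. Replicate 1 was thus above every alpha library. In replicate 2 a single read would count 0.340 RPKM, more than any alpha value, so it cannot be placed above or below alpha cells. The log2 fold change was -4.61 (SE 0.56, adjusted p = 0.000711) for alpha and -3.36 (SE 0.60, adjusted p = 0.0191) for transdifferentiated against beta cells. The latter was lost without beta replicate 1 (-3.20, adjusted p = 0.0631), without beta replicate 3 (-3.84, adjusted p = 0.0561) and without the filter on low values (adjusted p = 0.0538). The difference between transdifferentiated and alpha cells, 1.24 (adjusted p = 0.163), rested on replicate 1: it was 2.51 (adjusted p = 0.000892) without replicate 2 and -0.28 (adjusted p = 0.393) without replicate 1. Ctss lies on chromosome 3 (95526786 to 95556403).

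The complement genes parted from each other. C1qb was at 5.71, 3.52 and 5.64 RPKM in beta cells, at 0, 0.137 and 0.130 RPKM in alpha cells (0, 2 and 2 reads) and had no read in either transdifferentiated library. At the beta mean, 6.71 and 11.7 reads would be found there, so that with a floor of 3 reads over the group C1qb was at least 5.98-fold lower in transdifferentiated than in beta cells. C1qa, its neighbour on chromosome 4 (136895917 to 136898803, C1qb at 136880129 to 136886187), was at 24.9, 20.9 and 24.5 RPKM in beta cells, 16.2 and 17.3 RPKM in transdifferentiated cells and 18.0, 13.7 and 10.98 RPKM in alpha cells. All C1qa values outside beta cells were below the lowest beta library, and the transdifferentiated libraries lay within the alpha range. In percent of the beta mean, C1qa kept 46.8 to 76.8% in the alpha libraries, where C1qb had 0 to 2.76%. C1qc, which encodes the remaining chain, lies between them (136889804 to 136893065) and was at 2.03, 1.43 and 1.88 RPKM in beta cells, 0.416 RPKM (1 read) and 0 in transdifferentiated cells, and 0 in all alpha libraries.

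By limma, alpha cells had less C1qa than beta cells, the log2 fold change being -0.79 (SE 0.16, adjusted p = 0.00779), a call lost without alpha replicate 3 (-0.57, adjusted p = 0.0689). The difference between transdifferentiated and beta cells in C1qa, -0.50 (SE 0.18, adjusted p = 0.104), was not called. C1qb stood at -3.21 on the log2 scale (SE 0.27, adjusted p = 0.000143) for alpha and -3.43 (SE 0.29, adjusted p = 0.0025) for transdifferentiated against beta cells. With voom the second was -4.15 (SE 1.003, adjusted p = 0.0532) and not called.

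Cd68, on chromosome 11 (69664213 to 69666153), was at 28.7, 25.2 and 28.6 RPKM in beta cells and at 10.9 and 14.7 RPKM in transdifferentiated cells. The alpha libraries were far apart, at 6.96, 23.9 and 8.13 RPKM, replicate 2 lying just below the beta range. The log2 fold change of alpha against beta cells was -1.32 (SE 0.43, adjusted p = 0.0442), and the call was lost in 7 of 19 alternatives. Among them were leaving out beta replicates 1, 2 or 3 (-1.27, -1.35 and -1.36) and alpha replicates 1 or 3 (-1.01 and -0.96), where adjusted p reached 0.257. Without alpha replicate 2 the fold change was -1.77 (SE 0.14, adjusted p = 0.000532). In the same fit the transdifferentiated cells became lower than beta cells (-1.06, adjusted p = 0.0216) and higher than alpha cells (0.71, adjusted p = 0.0251). With all libraries these were -1.11 (adjusted p = 0.156) and 0.20 (adjusted p = 0.787). Alpha replicate 2 was also the highest alpha library in H2-Ab1 and had the highest sum of 10 acinar genes of the alpha libraries, 2607 RPKM against 44.5 and 646. The part of the acinar RNA in these values was not tested.

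Against alpha cells, Lyz2 and Ptprc were all but limited to beta cells, while the shallow transdifferentiated libraries left wide limits. In transdifferentiated replicates 1 and 2, upper 95% limits were 93.3 and 35.5% of the beta mean for Lyz2 and 143 and 82.4% for Ptprc. Lyz2 was at 5.33, 3.29 and 2.75 RPKM in beta cells (126, 89 and 50 reads) and at 0.635 RPKM (1 read) and 0 in the transdifferentiated libraries. It had 1 read in alpha replicate 3 and none in the other alpha libraries. Per recovered read of a library, beta cells held 197 times as many Lyz2 reads as alpha cells (exact 95% interval 35.1 to 7810) and 16.6 times as many as transdifferentiated cells (2.96 to 659). For Lyz2, limma gave -3.03 on the log2 scale (SE 0.39, adjusted p = 0.000953) for alpha and -2.48 (SE 0.42, adjusted p = 0.0169) for transdifferentiated against beta cells. The latter was lost with voom (-3.23, SE 0.93, adjusted p = 0.0828), without beta replicate 1 (adjusted p = 0.0539) and without beta replicate 3 (adjusted p = 0.0522). Ptprc, a long gene on chromosome 1 (138062861 to 138175708), was low even in beta cells: 0.126, 0.133 and 0.0800 RPKM on 43, 52 and 21 reads. Outside beta cells 1 read was found, in alpha replicate 3. Beta cells held 86.2 times as many Ptprc reads as alpha cells (15.2 to 3435). With a floor of 3 reads over the group, they held at least 2.43 times as many as transdifferentiated cells. In the transdifferentiated libraries, 2.57 and 4.48 reads would be found at the beta mean. Ptprc did not reach 1 RPKM in any library and was not tested by limma on RPKM. With voom on genes of at least 10 reads in 2 libraries, it was -5.05 (SE 0.56, adjusted p = 0.000148) for alpha and -2.65 (SE 0.66, adjusted p = 0.0605) for transdifferentiated against beta cells. Lyz2 lies on chromosome 10 (117277331 to 117282321). All intervals and floors cover counting error only.

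**Figure D2:**
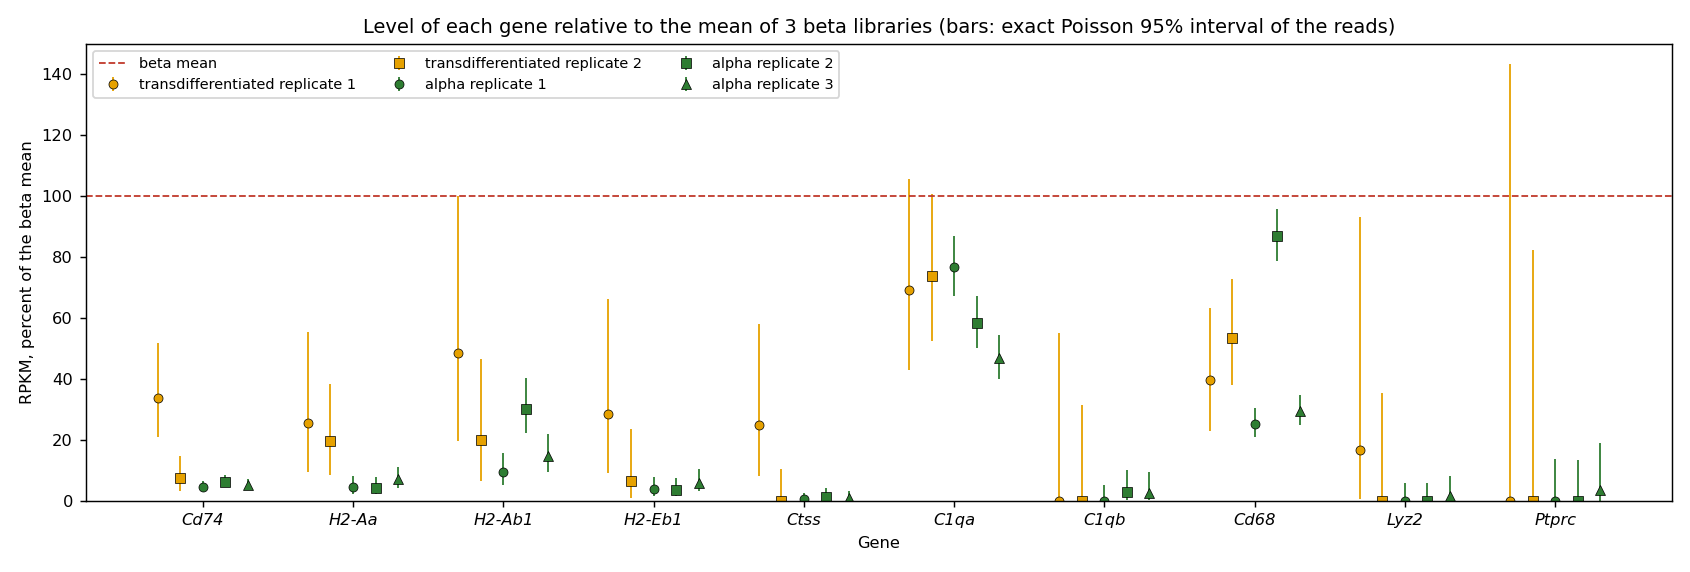
Level of each gene in the 2 transdifferentiated and 3 alpha libraries in percent of the beta mean (y axis), with bars for the exact Poisson 95% interval of the reads. Cd74 ran from 4.66 to 6.27% in alpha cells and was at 33.8 and 7.4% in transdifferentiated cells, while Cd68 in alpha replicate 2 was at 86.9%.

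In alpha against beta cells, 9 of 9 genes tested were called lower, beside 26.7% of all 13172 genes, with a median log2 fold change of -3.21 beside -0.05 over all genes. For the 10 genes, every alpha library was below every beta library, beside 35.8% of all genes. Of the 9, C1qb and Lyz2 passed the filter on low values (at least 1 RPKM in at least 2 libraries) through the beta libraries alone and so had to differ, and H2-Eb1 and Ctss had 1 other library at that level. With voom on genes of at least 10 reads in 2 libraries, 10 of 10 were called lower, beside 28.8% of all genes, but Ctss, C1qb, Lyz2 and Ptprc reached 10 reads in beta libraries alone.

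In transdifferentiated against beta cells, 7 of 9 were called lower by limma on RPKM, beside 2.9% of all genes: Cd74, H2-Aa, H2-Ab1, H2-Eb1, Ctss, C1qb and Lyz2. The median log2 fold change was -2.48 beside 0.09 over all genes. Of the 7, C1qb and Lyz2 passed the filter on low values through the beta libraries alone and so had to differ. H2-Eb1 and Ctss had 1 other library at that level. With voom 4 of 9 were called lower, beside 0.668% of all genes, namely Cd74 (-2.67, SE 0.45, adjusted p = 0.0178), H2-Aa (-2.10, SE 0.36, adjusted p = 0.0190), H2-Eb1 (-2.74, SE 0.60, adjusted p = 0.0403) and Ctss (-3.89, SE 0.88, adjusted p = 0.0440). These 4 were called by both tests. In data simulated at these depths, a set of genes was changed in the alpha libraries alone. Among the genes left unchanged, limma on RPKM called low genes in the shallow transdifferentiated libraries, mostly as lower. Voom made no such call against beta cells, and against alpha cells both tests made some. The simulation was a single draw that gave every gene the same spread beyond counting error. It cannot show how either test does for genes with a larger spread. With voom on genes of at least 10 reads in 2 libraries, 5 of 10 were called lower, beside 0.525% of all genes, the 4 and C1qb (-4.15, SE 0.96, adjusted p = 0.0489). Of the 5, Ctss and C1qb reached 10 reads in beta libraries alone. The values of H2-Ab1 and Lyz2 were called by limma on RPKM only. For all 10 genes both transdifferentiated libraries lay below every beta library, beside 15.3% of all genes. When only the beta and transdifferentiated libraries entered the fit, 0 of 9 were called by limma, 9 having an unadjusted p under 0.05, and 0 of all genes were called.

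In transdifferentiated against alpha cells, limma called 2 of 9 higher, Cd74 (1.48, SE 0.41, adjusted p = 0.0340) and H2-Aa, beside 23.2% of all genes. Voom called 1 of 9, H2-Aa (2.11, SE 0.42, adjusted p = 0.0101), beside 14.7%. Cd74 missed with voom (1.63, SE 0.49, adjusted p = 0.0563) and kept its call in 8 of 19 alternatives. It was 0.46 (adjusted p = 0.138) without transdifferentiated replicate 1, and also missed without beta replicate 2 (adjusted p = 0.0540), alpha replicate 1 (0.0843) or alpha replicate 2 (0.0836). Both transdifferentiated libraries lay above every alpha library in Cd74, H2-Aa and H2-Eb1, 3 of 10 genes, beside 40% of all genes, so this share was not above that of other genes. The comparisons with beta cells share the beta libraries, and those with transdifferentiated cells share the shallow ones. Median-ratio scaling moved the median over all genes from 0.09 to -0.03 in transdifferentiated against beta cells and from 0.17 to -0.04 against alpha cells. The share of calls that were higher moved with it from 75.8 to 52.7% and from 77.6 to 51.5%, and in alpha against beta cells from 38.8 to 50.02%. No gene of the set changed direction against beta cells under another scaling.

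**Figure D3:**
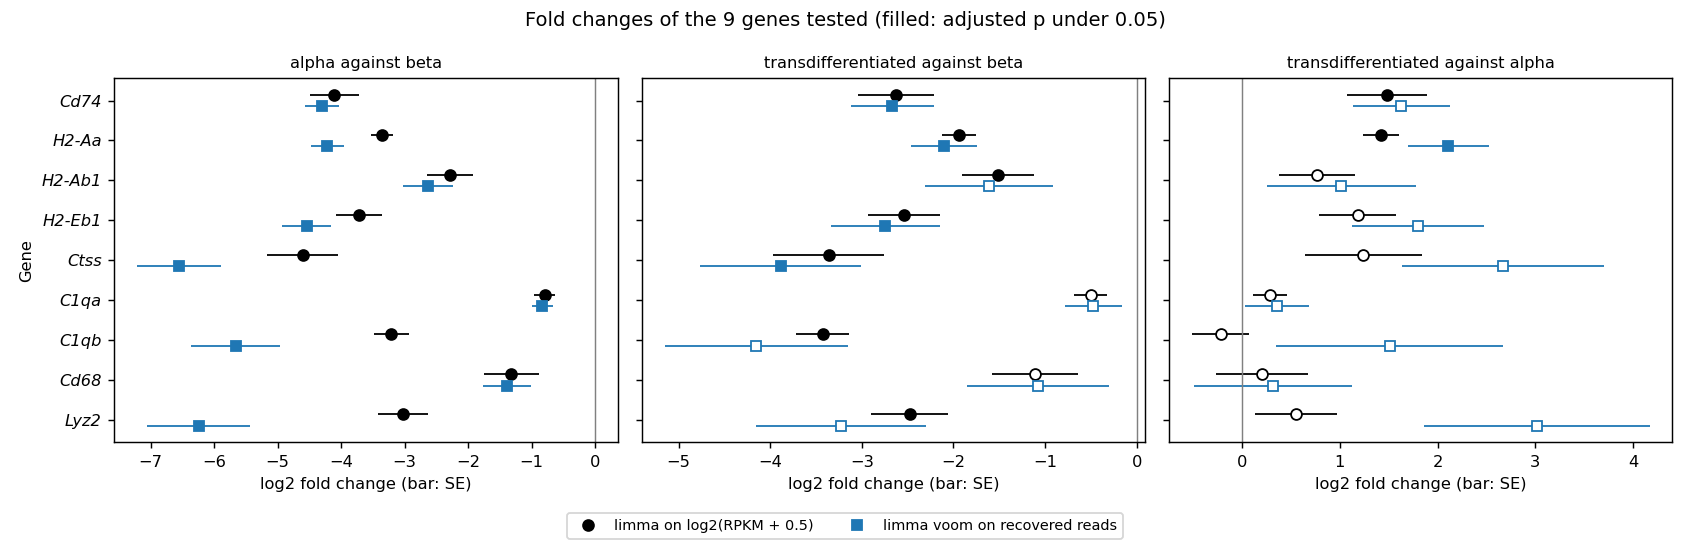
Log2 fold change (x axis) with its SE for the 9 genes tested, by limma on log2(RPKM + 0.5) and by limma voom on recovered reads, filled where adjusted p was under 0.05. The fold changes against beta cells are all below 0, and those between transdifferentiated and alpha cells are small for C1qa and Cd68.

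Within the beta group the 10 genes were steady. Their highest over lowest library was 1.09 (H2-Aa) to 1.94 (Lyz2), beside 18.6 to 37.9 for acinar genes with reads in every beta library. Beta replicate 2 was the lowest beta library for 8 of the 10 genes and had the highest acinar sum, 3587 RPKM against 123 and 1655. Summed RPKM of the 10 genes was 144, 121 and 144 in beta replicates 1 to 3, 52.1 and 38.8 in the transdifferentiated libraries, and 28.3, 43.1 and 23.7 in alpha replicates 1 to 3. The sum in alpha replicate 2 thus lay between the transdifferentiated libraries. Of the 8 genes with reads in a transdifferentiated library, 6 were higher in replicate 1.

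The composition of the sum changed between groups. C1qa and Cd68, set apart after their values were seen, made up 37.2, 38.2 and 36.9% of it in beta cells, 52.0 and 82.5% in transdifferentiated cells and 88.4, 87.2 and 80.5% in alpha cells. The other 8 genes summed to 90.6, 74.6 and 90.7 RPKM in beta cells, 24.96 and 6.77 RPKM in transdifferentiated cells (45 and 23 reads) and 3.28, 5.54 and 4.63 RPKM in alpha cells. Transdifferentiated replicate 2 lay close to the alpha libraries and replicate 1 well above them.

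**Figure D4:**
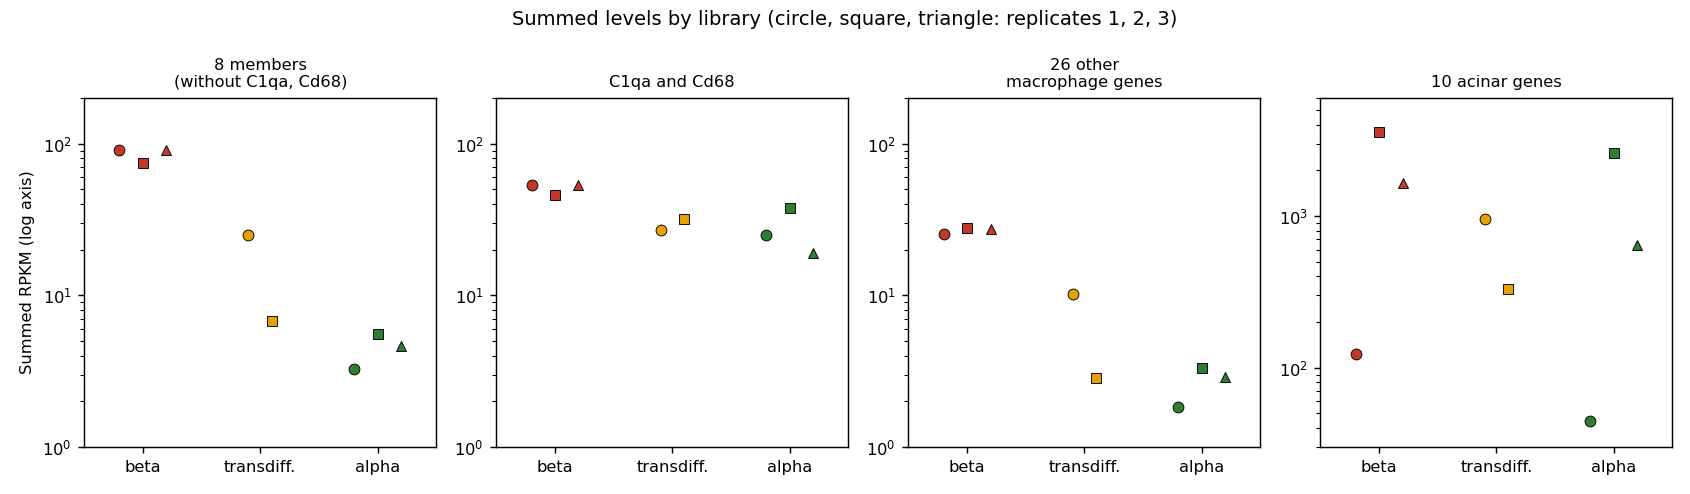
Summed RPKM (log y axis) per library of the 8 genes without C1qa and Cd68, of C1qa and Cd68, of 26 other macrophage genes and of 10 acinar genes. The 8 genes and the other macrophage genes fall from beta to alpha cells, C1qa and Cd68 fall less, and the acinar panel spreads widely within each group.

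The genes varied together over the 8 libraries. Over the 45 pairs, Pearson's r of log2(RPKM + 0.5) had a median of 0.89 and ran from 0.62 to 0.99, beside a median of 0.07 and a 90th percentile of 0.766 over pairs of all genes. The 28 pairs without C1qa and Cd68 had a median of 0.94 and a lowest value of 0.84. Pairs with C1qa or Cd68 had a median of 0.76 (0.62 to 0.84). These values describe 8 libraries that share 3 groups and differ in depth.

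After each group's mean was taken off, less was shared. The median over the 45 pairs was 0.18 (-0.58 to 0.99), 24 pairs were above 0, and pairs of all genes had a median of 0.048 and a 90th percentile of 0.713. The 28 pairs without C1qa and Cd68 had a median of 0.53, the lowest being -0.48, and pairs with either of them -0.14. Between the transdifferentiated libraries, Cd74, H2-Aa, H2-Ab1, H2-Eb1, Ctss and Lyz2 were higher in replicate 1, and C1qa and Cd68 in replicate 2. These libraries rest on 83 and 102 reads in all 10 genes.

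**Figure D5:**
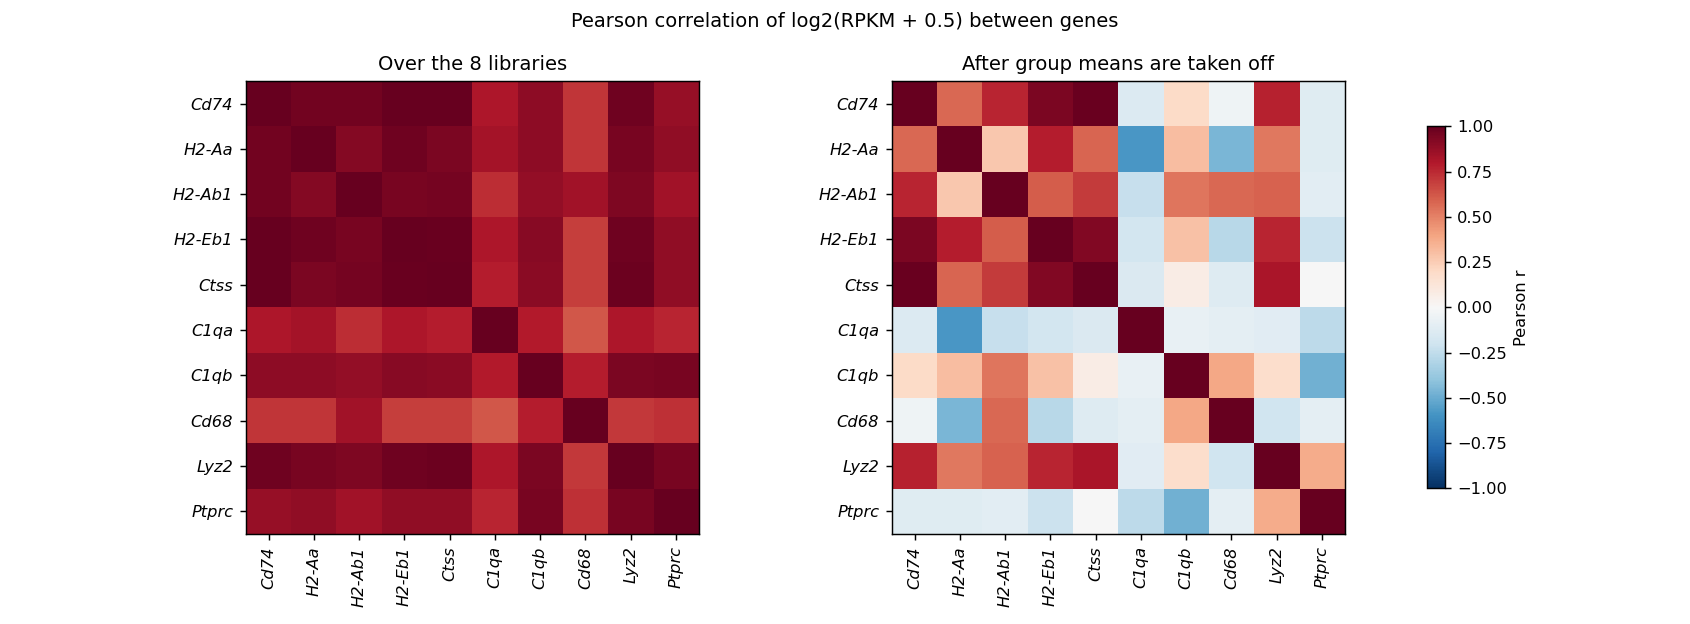
Pearson r (colour scale from -1 to 1) between log2(RPKM + 0.5) of the 10 genes over the 8 libraries, left as measured and right with group means taken off. At left every pair is above 0.62, with Cd68 palest, and at right Cd74 stays high with Ctss (0.99) and H2-Eb1 (0.94), H2-Aa and H2-Ab1 are at 0.27, and C1qa is below 0 with each other gene.

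Outside the set, 413 of 12117 genes had r of at least 0.9 with the mean pattern of the 10 genes over the 8 libraries. The 10 most alike were Coro2b (0.994), Sec14l1 (0.992), Tmigd3 (0.990), Acp5 (0.989), Ppapdc2, Strap, Inpp5a, Csrp2bp, Bloc1s6 and Ywhaz (0.978). Most of them had smaller fold changes than the class II genes. Coro2b went from 23.2 to 26.6 RPKM in beta cells to 16.1 and 17.6 in transdifferentiated and 14.2 to 15.8 in alpha cells. Tmigd3 had a steeper pattern, at 9.48 to 10.2 RPKM in beta cells, 2.45 and 1.21 in transdifferentiated cells and 0.896 to 1.11 in alpha cells. Acp5, which encodes an acid phosphatase of osteoclasts and macrophages, was at 2.08 to 3.09 RPKM in beta cells, 0.498 and 0 in transdifferentiated cells and 0 in alpha cells. With group means taken off, among the most alike were Fbxo10 (0.995), Sfxn3, Pcgf2, Ercc3, Zbtb40, Sec14l1, Ak5, Fig4 and Pgap2 (0.975), and 186 genes had r of at least 0.9. Sec14l1 was in both lists.

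Other genes of the class II pathway went in both directions. Of 19 listed, 18 were found and 10 tested; March1 was not analysed here, since some gene names had become dates. In alpha against beta cells 3 were lower and 2 higher, beside 26.7% lower and 16.9% higher over all genes, and the median log2 fold change was -0.07 beside -0.05. These shares are near those of all genes. Ifi30, a lysosomal thiol reductase, was at 73.6 to 78.3 RPKM in beta cells and 19.6 to 27.9 in alpha cells (-1.64, SE 0.20, adjusted p = 0.000685), with 41.0 and 64.0 RPKM in transdifferentiated replicates 1 and 2. Cd40 (-1.64, adjusted p = 0.00163) and the protease Ctsh (-0.83, adjusted p = 0.0274) were the others that fell, while Cd83 (1.95, adjusted p = 0.00127) and Rfxap (0.68, adjusted p = 0.00177), a subunit of the RFX complex, were higher in alpha cells. In transdifferentiated against beta cells, limma called 1 of 10 higher, Rfx5 (0.70, adjusted p = 0.0483), beside 1198 of all 13172 genes. The limma share is thus near that of all genes. Voom called 0 of the 10 (adjusted p = 0.133 for Rfx5), beside 588 of all 13172 genes called higher. Ciita, the master regulator of class II transcription, was at 0.0510 to 0.306 RPKM over all libraries, below 1 RPKM in each, and was not tested. The lysosomal proteases Ctsl and Lgmn were at 255 to 382 and at 15.03 to 24.7 RPKM, with overlapping groups and no call in any comparison of groups.

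Other macrophage genes were also highest in beta cells in their sum. Of 26 listed, 7 were tested, and 6 of these were called lower in alpha cells: Fcer1g, Mpeg1, Tyrobp, C1qc, Cd53 and Laptm5, beside 26.7% of all genes. Of these 6, Mpeg1, C1qc, Cd53 and Laptm5 passed the filter on low values through the beta libraries alone and so had to differ, and Fcer1g and Tyrobp had 1 other library at 1 RPKM. Mpeg1, a pore-forming protein of macrophages, was at 3.43 to 4.38 RPKM in beta cells, 0.556 and 0.851 in transdifferentiated cells (3 and 8 reads) and 0.0818 to 0.172 in alpha cells. It was lower in transdifferentiated than in beta cells by both tests (limma -1.87, SE 0.22, adjusted p = 0.00597; voom -2.31, SE 0.42, adjusted p = 0.0225) and higher than in alpha cells by both (0.91, adjusted p = 0.0213; 2.54, adjusted p = 0.0101). Limma called 5 of 7 lower in transdifferentiated than in beta cells, beside 2.9% of all genes, and voom 1 of 7, beside 0.668%. Of the 5, Mpeg1, C1qc and Cd53 had passed the filter through the beta libraries alone, Mpeg1 being the voom call. With voom on genes of at least 10 reads in 2 libraries, 23 were tested, of which 22 were lower in alpha and 1 in transdifferentiated than in beta cells, beside 28.8% and 0.525% of all genes. Of the 23, however, 19 reached 10 reads in beta libraries alone. The 26 genes summed to 25.4 to 27.9 RPKM in beta cells, 10.2 and 2.86 RPKM in transdifferentiated replicates 1 and 2, and 1.84 to 3.31 RPKM in alpha cells. Against beta cells, 22 of the 23 had a transdifferentiated fold change below 0 by this voom setting. Irf8 did not (0.87, adjusted p = 0.443), at 0.228 and 0.196 RPKM (2 to 3 reads) beside 0.106 to 0.175 in beta cells. Cd14 was at 3.58 RPKM (7 reads) in transdifferentiated replicate 1, its highest library, and at 0 in replicate 2. In both transdifferentiated libraries 12 of the 26 had no read, among them the macrophage markers Adgre1 and Spi1. These 2 had 93 and 57 reads over the far deeper beta libraries. By voom at 10 reads, neither was called lower in transdifferentiated than in beta cells (adjusted p = 0.0844 and 0.127). Adgre1 averaged 0.531 ± 0.0902 RPKM (SD, n = 3) and Csf1r, the receptor of macrophage growth factor, 0.871 ± 0.0664 RPKM (SD, n = 3) in beta cells. Cd14 was the gene of the 7 not called against beta cells in either comparison.

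Most markers of other immune cells were sparse. The 8 dendritic cell genes summed to at most 0.258 RPKM in beta, 0.472 in transdifferentiated and 0.117 in alpha libraries. The 8 B cell genes summed to 1.83 to 2.86 RPKM in beta libraries, to 2.04 and 1.09 RPKM in transdifferentiated replicates 1 and 2 and to 0.988 to 1.52 RPKM in the alpha group. Blnk, an adaptor of B cell receptor signalling, gave 1.06 to 1.77, 1.88 and 0.770, and 0.336 to 0.597 RPKM of these sums in the same order. Cd79a, also of this list, gave 0.641 to 0.814, 0 and 0.317, and 0.106 to 0.195 RPKM. With voom on genes of at least 10 reads it was lower in alpha than in beta cells (-2.01, adjusted p = 0.00777). It reached 10 reads in beta libraries alone. The 9 T and NK cell genes were highest in alpha cells (3.25 to 4.09 RPKM), almost wholly from Lck. Among 8 neutrophil and monocyte genes, S100a9 was at 2.87, 6.36 and 2.40 RPKM in beta replicates 1 to 3 and at 0 in every other library. Endothelial genes summed to 3.64 to 12.5 RPKM over all libraries and mesenchymal genes to 0.490 to 3.09 RPKM, neither being highest in beta cells. Which cells the class II and macrophage RNA came from was not tested.

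Sex was balanced only in part over the groups. No gene of the 9 was called between female and male libraries by limma or by voom, beside 0.0456% of all genes, with 0 of the 9 at an unadjusted p under 0.05 and a lowest adjusted p of 0.843. With the letter b as a term, 9 of 9 were still called lower in alpha and 7 of 9 in transdifferentiated against beta cells. Among the latter, C1qa (-0.73, adjusted p = 0.0250) replaced H2-Ab1. The share of all genes called lower in that fit was not set beside these counts. In the libraries without the letter, Cd74 was at 36.1 RPKM in beta replicate 1 and 1.65 RPKM in alpha replicate 1, and in those with it at 31.4 and 38.7 RPKM against 2.22 and 1.86 RPKM. No transdifferentiated library carries the letter.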

How the data were processed

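The authors deposited 1 table of RPKM per gene and library. The submitters' processing notes name the mouse build GRCm38.p4 and the tools edgeR 3.14.0, STAR 2.5 and featureCounts. No source used here names the annotation or strand setting. The unstranded TruSeq RNA kit v2 was used, per the labels' protocols. Of 46959 entries, 4 with repeated names were left out, and 27 had names turned into dates. The genes and lists were chosen with earlier results of these data known.

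Whole reads were recovered from the RPKM steps. With GENCODE M21 exon lengths, 78.5% of genes matched by symbol (19907 of 25349) came out whole in every library (tolerance 0.01 read), and 6878 further lengths were solved from the steps themselves, among them those of Cd74, H2-Aa, H2-Ab1, H2-Eb1 and Lyz2. A solved length assumes the smallest whole reads.

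The test was limma 3.58.1 (lmFit and trended eBayes, R 4.3.3), run on log2(RPKM + 0.5) with group and sex as terms, over 13172 genes with at least 1 RPKM in at least 2 libraries and Benjamini-Hochberg adjustment. This scale understates changes of low genes. The 19 alternatives included limma voom on recovered reads, and 1 of them, voom on genes with at least 10 reads in 2 libraries, was added after seeing the data. Both tests were tested on simulated data. Intervals are exact Poisson or, for ratios of pooled reads, exact conditional (95%). The named genes are the 10, those of the other class II and macrophage lists that were called, up to 3 leading genes of each other list, and the 10 most alike by each measure, of which 1 is not reported here.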

Additional observations from a re-analysis of the deposited data

How the results depend on the processing

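Over the 19 alternatives, 432 values of single genes kept their direction and their side of the threshold, 48 lost a call, 8 gained one and 10 changed sign, all 10 in transdifferentiated against alpha cells and without a call. These were Ctss (-0.28) and Lyz2 (-0.28) without transdifferentiated replicate 1, and C1qb with quantile normalization (0.20), voom (1.51) and voom on at least 10 reads (1.51). C1qb had no read in either transdifferentiated library and 4 reads over the alpha libraries. Its values above 0 thus do not show more C1qb RNA in transdifferentiated cells. The others were Cd68 with median-ratio scaling (-0.0159), quantile normalization (-0.0532) and without transdifferentiated replicate 2 (-0.15), alpha replicate 1 (-0.14) or alpha replicate 3 (-0.10). In the same comparison, leaving out transdifferentiated replicate 2 gave 2.51 for Ctss and 1.25 for Lyz2. These values rest on replicate 1 alone, with 5 reads of Ctss and 1 read of Lyz2. Leaving out alpha replicate 2 gave a called value for Cd68 (0.71). The number of the 10 genes called in alpha against beta cells went from 9 to 4 of 4 tested with a mean of at least 5 RPKM, and to 7 to 9 when a library was left out. In transdifferentiated against beta cells it went from 7 to 2 of 4 tested with that filter, 0 with only the 2 groups compared, 4 with voom and 2 to 7 when a library was left out (4 without beta replicate 1, 2 without beta replicate 3). In transdifferentiated against alpha cells it went from 2 to 1 without a filter or with a mean of at least 5 RPKM. It was also 1 without the sex term, with only the 2 groups, with median-ratio scaling and with the letter b as a term. Both voom settings gave 1. When a library was left out, the count was highest without transdifferentiated replicate 2. That fit rests on replicate 1 alone, with 5 reads each of H2-Eb1 and Ctss and 1 read of Lyz2. Over all genes, calls in transdifferentiated against beta cells went from 1580 to 877 without a filter, 863 with a mean of at least 5 RPKM, 0 with only the 2 groups (3337 at an unadjusted p under 0.05), 676 with voom on all 8 libraries, 669 with voom on at least 10 reads, and 235 to 1737 when a library was left out. Against alpha cells they went from 3932 to 2267 with only the 2 groups, 2259 and 2359 with the voom settings and 2433 to 3820 when a library was left out. In alpha against beta cells they went from 5743 to between 3110 and 6645 when a library was left out. For settings other than voom, the counts of the 10 genes here have no share of all genes called in the same direction beside them. A comparison left with 1 transdifferentiated library takes its spread from the other groups. The cause of these changes was not tested. No paired analysis was possible because the labels give no replicate numbers shared across groups; sex, which the groups do share, was a term of the fit. The transdifferentiated libraries held 0 to 40 reads of any 1 of the 10 genes, which limits every comparison that includes them.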
